A study of Sus scrofa with 9 samples.

Results

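Of the 3890 named genes in the table, 30 are subunits of the proteasome or members of the UBE2 family of E2 conjugating enzymes. They were taken by symbol: 19 genes whose symbol starts with PSMA, PSMB, PSMC, PSMD or PSME, with PSMB8 left out, and 11 whose symbol starts with UBE2. These genes fill 37 of the 4882 annotated transcript positions, because 6 of them are listed at more than 1 position. Each gene was represented by its longest position. Of the 30 genes, 23 (14 proteasome and 9 UBE2 genes) had a mean of at least 0.5 RPKM over all libraries and entered the tests. RPKM here is reads per kilobase of annotated span, introns included, scaled to the total reads of the library.

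The samples came from myocardium of 3 female farm pigs in which an embolization coil had been placed in the distal left anterior descending coronary artery 24 h earlier. Healthy, border zone and ischemic tissue was sampled from every pig, so the 9 libraries form 3 groups of 3 and every group, the healthy one included, comes from infarcted hearts. The sources used here do not give the pigs' age or strain, or how far from the infarct the healthy tissue lay. Nascent RNA was measured by GRO-seq: tissue was minced and digested with collagenase, nuclei of the mixed cells were isolated, and polymerases already on the DNA were allowed to run on with a labelled nucleotide, so the reads mark transcription in progress and not stored mRNA.

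The proteasome is the large protease that degrades proteins tagged with ubiquitin. Its core is a barrel of outer alpha rings and inner beta rings, the beta rings holding the cutting sites, and its regulatory cap recognises, unfolds and feeds in the substrate with a ring of ATPases and a set of non-ATPase subunits. E2 enzymes take activated ubiquitin from an E1 enzyme and, with an E3 ligase, pass it to the substrate, and a few E2 enzymes carry ubiquitin-like proteins instead. In heart muscle the system turns over sarcomere and signalling proteins, and interferons can replace core beta subunits with immunoproteasome subunits.

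By totals estimated from the RPKM values, the healthy libraries held 2730083 to 6531658 reads and the border zone libraries 2187977 to 7005976. The ischemic libraries held 883656 to 2134087, so ischemic values carry the largest counting error. A tested member had a median of 80 reads per healthy, 77 per border zone and 32 per ischemic library. The tissue labels were checked with marker genes. The summed RPKM of 10 heart muscle genes was 343 to 569 in the healthy, 162 to 275 in the border zone and 67.6 to 213 in the ischemic libraries. The macrophage and monocyte sum was 0.822 to 1.76, 11.7 to 24.4 and 30.8 to 40.6 in the same order, with CD163 at 0 in every library. The neutrophil sum was 0.0813 to 0.323, 5.28 to 10.8 and 14.1 to 30.2. These 3 sums did not overlap between healthy and ischemic tissue. In such mixed tissue, fewer cells of a type and less RNA per cell cannot be told apart, and the part of the cell mixture in the results below was not tested.

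Not every subunit could be read. PSMB1, PSMB3, PSMB10 and UBE2V2 lie, at their longest positions, on contigs that are not placed on a chromosome, and all 491 positions on such contigs had no read in any library, so the zeros say nothing about these genes. Another 3 members, PSMA5 and PSMB9 among them, had reads but lay under the mean of 0.5 RPKM. UBE2L6, at a mean of 0.619 RPKM, was the lowest member above that limit, and PSMB9, at 0.48 RPKM, the highest below it. The detected members comprised 4 alpha subunits (PSMA4, PSMA5, PSMA6 and PSMA7), 4 beta subunits (PSMB4, PSMB6, PSMB7 and PSMB9), 3 cap ATPases (PSMC1, PSMC2 and PSMC5), 2 non-ATPase cap subunits (PSMD2 and PSMD4), 3 activators (PSME1, PSME2 and PSME3) and 10 E2 genes.

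The median of the mean levels was 1.62 RPKM for the 23 tested members and 1.46 RPKM for the 2384 tested positions. Over the 26 detected members, mean RPKM in the 9 libraries ran from 0.373 for PSMA5 to 3.90 for PSMB4, a 10.4-fold range. The highest 4 means after the filter belonged to PSMB4, UBE2D3, PSMC5 and PSMB6, at 3.90, 3.55, 3.24 and 3.22 RPKM. Genes with long spans had lower RPKM. Spearman's rho between span and mean RPKM was -0.55 over the 26 members and -0.36 over the 2384 tested positions, a description across genes that share their libraries. RPKM divides reads by this same span, so the rho cannot show whether long genes are transcribed less. Summed per library, the 16 detected proteasome genes gave 23.3 to 32.1 RPKM in healthy, 24.2 to 30.0 in the border zone and 26.2 to 47.3 in ischemic tissue. The 10 detected E2 genes gave 14.4 to 15.6, 12.2 to 17.5 and 12.9 to 14.1 RPKM. The proteasome sums overlapped between all zones. The ischemic E2 sums all lay below the healthy ones but within the border zone range.

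**Figure D1:**
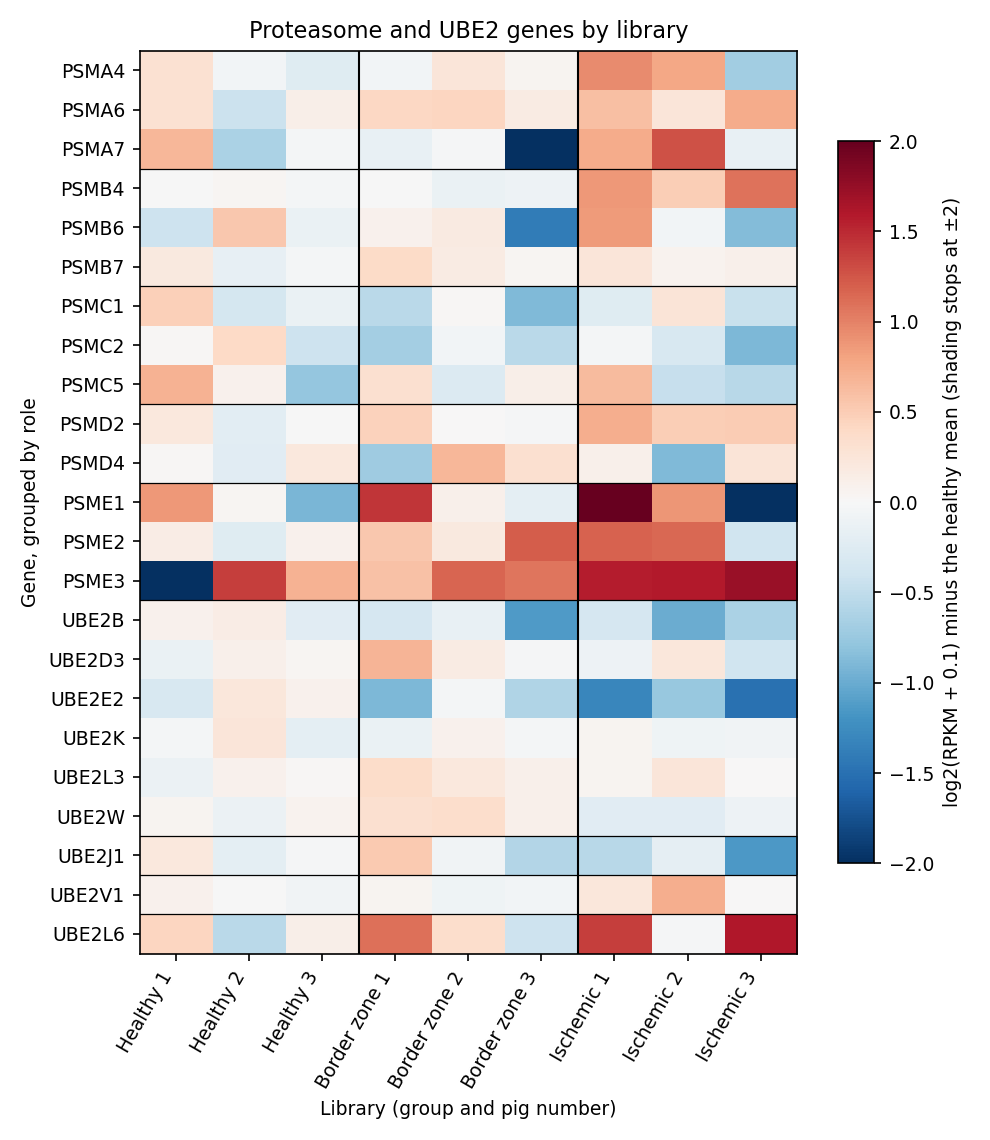
Each row is a tested member, ordered by role, and each column 1 of the 9 libraries; colour gives log2(RPKM + 0.1) minus the healthy mean of that gene, with shading that stops at 2 in either direction. UBE2K, UBE2L3 and PSMB7 stay pale in every column, PSMB4 is red in the 3 ischemic columns, UBE2E2 is blue there, and in PSME1 each zone runs from red in pig 1 to blue in pig 3.

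The first comparison asked which members were transcribed differently in ischemic and healthy tissue of the same hearts. Of the 23 members tested, PSMB4 rose and UBE2E2 fell, and the other 21 did not pass the test (limma on log2(RPKM + 0.1), Benjamini-Hochberg adjustment over 2384 positions, threshold 0.05). Of all positions tested, 27.6% passed, 442 higher (18.5%) and 217 lower (9.1%). Under scaling each library to its median, that split was 337 higher and 297 lower, and under quantile normalization 249 and 251. The members' changes were small: the median absolute log2 fold change was 0.34 for the members and 0.76 for all positions, and 2 of 23 members changed by more than 1 on the log2 scale against 39.3% of all positions. The median standard error was 0.32 for the members and 0.37 for all positions. The signed median was -0.02 for the members (0.24 for the proteasome genes, -0.09 for the E2 genes) and 0.21 for all positions.

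**Figure D2:**
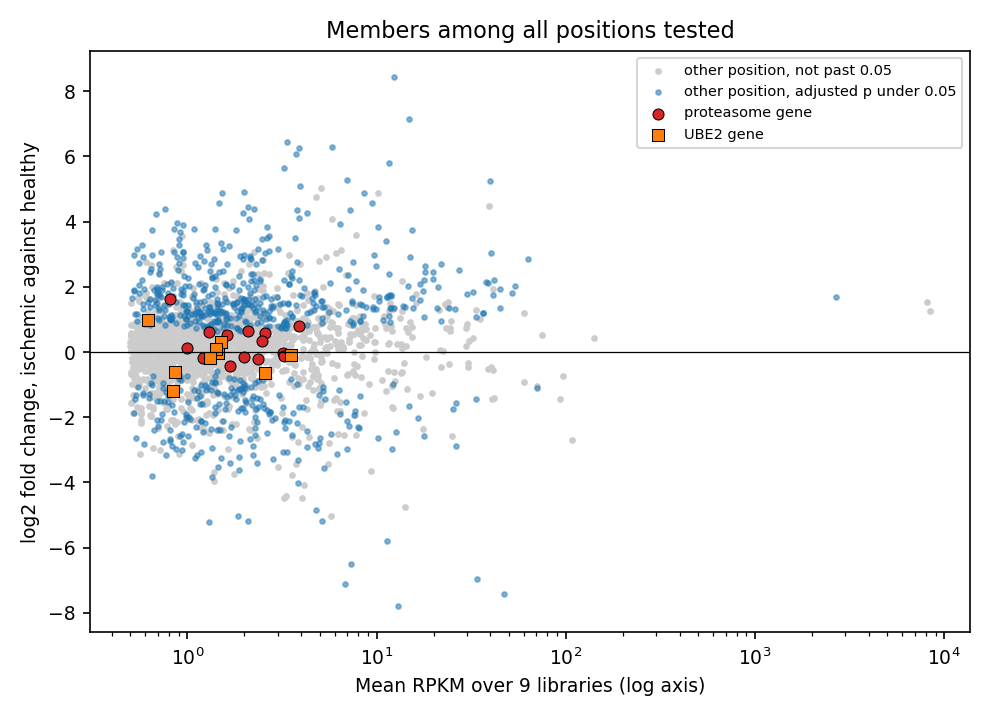
Each point is 1 of the 2384 tested positions, with its mean RPKM over the 9 libraries on a log axis against its log2 fold change of ischemic against healthy tissue; proteasome genes are red circles, UBE2 genes orange squares, and other positions past the adjusted p of 0.05 blue. The members' log2 fold changes lie between UBE2E2 at -1.19 and PSME3 at 1.63.

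PSMB4 is a beta subunit without a cutting site that is needed for the core to assemble. It lies at chr4:107036322-107038687 on the minus strand of susScr3, a span of 2365 bp (identifier NM_001244455). In healthy tissue of pigs 1, 2 and 3 it read 3.10, 3.21 and 3.04 RPKM, in border zone 3.10, 2.84 and 2.90, and in ischemic tissue 5.75, 4.45 and 6.70. The healthy and border zone libraries lay within a narrow band, and every ischemic library stood above it. Group means were 3.12 ± 0.0847, 2.94 ± 0.135 and 5.63 ± 1.13 RPKM (SD, n = 3 each). The ischemic level was 1.76-fold the healthy one (log2 fold change 0.81 ± 0.21 SE, limma adjusted p = 0.0229), higher in 3 of 3 pigs. The counts behind these values were low, with 20, 26 and 47 reads in the healthy and 26, 47 and 15 in the border zone libraries. The ischemic libraries held 29, 12 and 14. The narrow band is thus not a measure of precision, and limma-voom on whole reads gave the log2 fold change an SE of 0.39. The call was lost under median scaling (0.59, adjusted p = 0.0648), quantile normalization (0.45, adjusted p = 0.135), a fit of the 2 groups alone (adjusted p = 0.0604), limma-voom on whole reads (0.85, adjusted p = 0.112), and without healthy library 1, 2 or 3 or ischemic library 1 or 3 (limma adjusted p = 0.0522, 0.0624, 0.0655, 0.0595 and 0.0626), always in the same direction.

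UBE2E2 is an E2 enzyme with a long, disordered extension before its catalytic fold. Its position, chr13:11352721-11778686 on the plus strand (identifier NM_001078672_1), spans 425965 bp, of which 428 bp are exon. The long span holds many reads at a low RPKM: 6667 in the healthy, 5028 in the border zone and 837 in the ischemic libraries together. It read 0.934, 1.40 and 1.27 RPKM in healthy, 0.592, 1.15 and 0.751 in the border zone and 0.419, 0.663 and 0.356 in ischemic tissue. In each pig the order was healthy, border zone, ischemic from high to low, and the healthy and ischemic groups did not overlap. Means were 1.20 ± 0.241, 0.831 ± 0.288 and 0.479 ± 0.162 RPKM (SD, n = 3 each). The ischemic level was 2.28-fold lower than the healthy one (log2 fold change -1.19 ± 0.32 SE, limma adjusted p = 0.0268), lower in 3 of 3 pigs.

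The UBE2E2 call was lost under quantile normalization (-1.39, limma adjusted p = 0.0741) and without healthy library 2 or 3 or ischemic library 1 or 3 (adjusted p = 0.0905, 0.0788, 0.0714 and 0.0709). A second UBE2E2 position on chromosome 13, of 175 bp and 46 reads in all, gave 1.71 (limma adjusted p = 0.685). The library of pig 2 was highest in border zone and in ischemic tissue both for UBE2E2 and for the summed heart muscle genes, at 275 and 213 RPKM. In healthy tissue pig 1 had the highest heart muscle sum, at 569 RPKM, and the lowest UBE2E2, at 0.934 RPKM, while pig 2 exceeded pig 3 in both. The heart muscle genes differed among themselves there: MYH7 was highest in pig 1 and ATP2A2 was lowest in pig 1. Whether heart muscle content sets the UBE2E2 level was not tested. Of the 8 other tested positions above 400 kb, 5 fell as well (limma), and the median log2 fold change over all 9 was -1.50. Of the 24 positions between 200 and 400 kb, 5 rose and 5 fell.

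**Figure D3:**
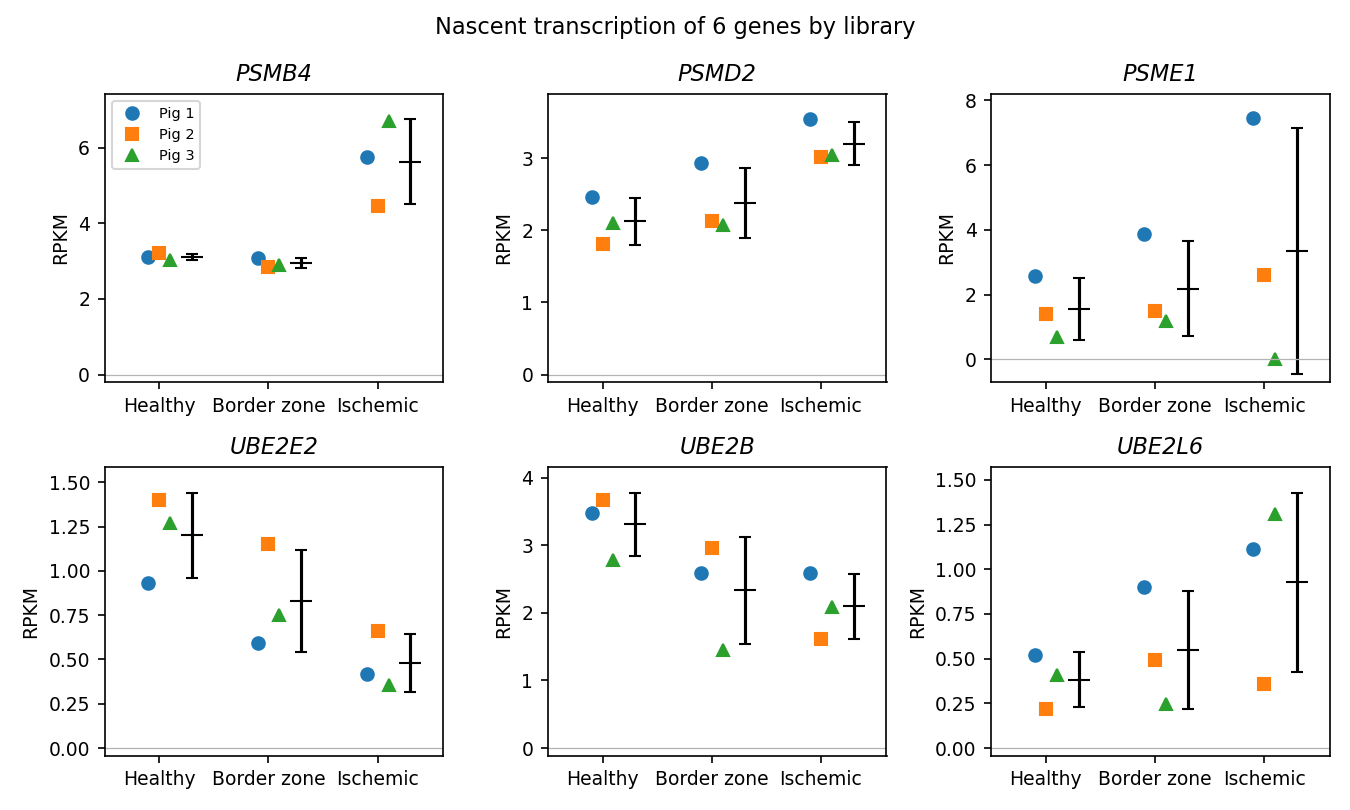
RPKM in each of the 9 libraries for PSMB4, PSMD2, PSME1, UBE2E2, UBE2B and UBE2L6, with points by pig and black bars for the mean and SD of each zone (n = 3). PSMB4 is separated in the ischemic zone, UBE2E2 steps down through the zones, and PSME1 spreads from 0 to 7.46 RPKM within the ischemic zone.

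Of the other tested alpha and beta subunits, none passed in ischemic against healthy tissue in limma, and none had an unadjusted p under 0.05. Log2 fold changes were 0.34 ± 0.41 (SE) for PSMA4, 0.53 ± 0.25 for PSMA6 and 0.62 ± 0.93 for PSMA7, whose wide error comes with a border zone library at 0. PSMA5, with a span of 72148 bp and too weak for the filter, gave 0.20 ± 0.27 in a fit without it. PSMB6 (chr12:54317056-54319039) carries the caspase-like cutting site. It read 2.40, 4.71 and 2.93 RPKM in healthy, 3.41, 3.67 and 1.15 in the border zone and 5.91, 3.09 and 1.71 in ischemic tissue. Its groups overlapped fully, and its log2 fold change was -0.02 ± 0.56 (95% interval -1.30 to 1.25). PSMB7, which carries the trypsin-like site, was measured more tightly, at 0.13 ± 0.20 (95% interval -0.32 to 0.59).

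PSMA4 depended on 1 library, and its values are given for that reason, a choice made after they were seen. It read 2.65, 2.04 and 1.77 RPKM in healthy and 4.20, 3.71 and 1.27 in ischemic tissue. Ischemic pig 3, with only 9 reads, lay below every healthy library. Without that library its log2 fold change was 0.87 (limma adjusted p = 0.0424).

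In the regulatory cap, PSMC5 (chr12:15092307-15096632), an ATPase of the unfolding ring, read 5.08, 3.31 and 1.77 RPKM in healthy, 3.91, 2.54 and 3.38 in the border zone and 4.88, 2.23 and 2.09 in ischemic tissue. The spread within each zone exceeded the difference between zones, and the log2 fold change was -0.13 ± 0.45 (SE). The ATPases PSMC1 and PSMC2 gave -0.14 ± 0.33 and -0.42 ± 0.31, and the ubiquitin receptor PSMD4 gave -0.18 ± 0.42. PSMD2 (chr13:131627272-131639168), a scaffold subunit at the base of the cap, is described here because its groups did not overlap, a choice made after its values were seen. It read 2.46, 1.82 and 2.10 RPKM in healthy, 2.94, 2.12 and 2.07 in the border zone and 3.55, 3.02 and 3.04 in ischemic tissue. All 3 ischemic libraries lay above all border zone and healthy ones. Its log2 fold change was 0.58 ± 0.21 (SE; limma adjusted p = 0.0779), and with pig as a replicate block it passed the test (adjusted p = 0.0411). It did not pass under any other alternative, with 0.36 (adjusted p = 0.18) under median scaling and 0.31 (adjusted p = 0.265) under quantile normalization.

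The activators open the core in place of the cap. PSME1 and PSME2 form the interferon-gamma-inducible ring, and PSME3 forms a nuclear one. PSME3 (chr12:20244828-20250106) read 0, 0.995 and 0.580 RPKM in healthy, 0.534, 0.838 and 0.779 in the border zone and 1.15, 1.16 and 1.29 in ischemic tissue. The ischemic libraries were close together and above all others, but held only 13, 7 and 6 reads. Healthy pig 1 had no read, which allows a level of up to 0.208 RPKM (3 reads, counting error only). The log2 fold change was 1.63 ± 0.77 (SE; limma adjusted p = 0.15), and 0.59 without healthy library 1.

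PSME2 (chr7:80425891-80429162) read 1.57, 1.16 and 1.50 RPKM in healthy, 2.07, 1.61 and 3.35 in the border zone and 3.29, 3.22 and 1.04 in ischemic tissue. Its border zone libraries all lay above the healthy ones, and ischemic pig 3 was the lowest of all 9, with only 3 reads. The log2 fold change was 0.64 ± 0.45 (SE; limma adjusted p = 0.325), and 1.16 (adjusted p = 0.0418) without that library. PSME1 (chr7:80433126-80435826) read 2.58, 1.41 and 0.680 RPKM in healthy, 3.86, 1.48 and 1.18 in the border zone and 7.46, 2.60 and 0 in ischemic tissue. In every zone pig 1 was highest and pig 3 lowest, and the spread within the ischemic zone covered every other value. The library at 0 allows up to 1.26 RPKM at 3 reads. The PSME1 log2 fold change was -0.21 ± 1.44 (SE; 95% interval -3.53 to 3.11) and 1.62 without ischemic library 3, so no direction can be given. PSME1 and PSME2 lie 3963 bp apart on chromosome 7, on opposite strands with their ends facing each other. The sources used here do not say whether counting used strand.

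Of the interferon-gamma-inducible members, only PSME1, PSME2 and UBE2L6 entered the test. None of them passed in limma with all libraries in the fit, and none had an unadjusted p under 0.05. PSMB9 and PSMB10 were not tested at the positions that stood for them. PSMB9, which replaces PSMB6 in the immunoproteasome, read 0.936, 0.287 and 0.331 RPKM in healthy, 0.387, 0.841 and 0.539 in the border zone and 0.552, 0 and 0.445 in ischemic tissue. The groups overlapped, the empty library allows up to 0.517 RPKM, and a fit without the filter gave -0.76 ± 0.75 (SE). PSMB9 is listed a second time on chromosome 7 with the same span of 5089 bp, so length does not choose between the copies and the one listed under the first identifier stood for the gene. The other copy read 0.576, 0.229 and 0.331 RPKM in healthy, 0.775, 0.926 and 0.629 in the border zone and 0.368, 0.517 and 0 in ischemic tissue. There the border zone libraries all lay above the healthy ones, and a different ischemic library was at 0. UBE2L6 (chr2:12987538-13002246), the E2 enzyme of the interferon-induced protein ISG15, read 0.523, 0.218 and 0.406 RPKM in healthy, 0.900, 0.495 and 0.249 in the border zone and 1.12, 0.358 and 1.31 in ischemic tissue. It was higher in ischemic than in healthy tissue in 3 of 3 pigs, but pig 2 in the ischemic zone lay below the highest healthy library, and the log2 fold change was 0.99 ± 0.56 (SE; limma adjusted p = 0.223). A list of 9 other interferon-induced genes summed to 6.64 to 8.78 RPKM in healthy, 9.45 to 12 in the border zone and 9.61 to 22.9 in ischemic libraries, with 2 of them at 0 in all, and 3 of its 6 tested genes rose in ischemic tissue, against 18.5% of all positions.

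**Figure D4:**
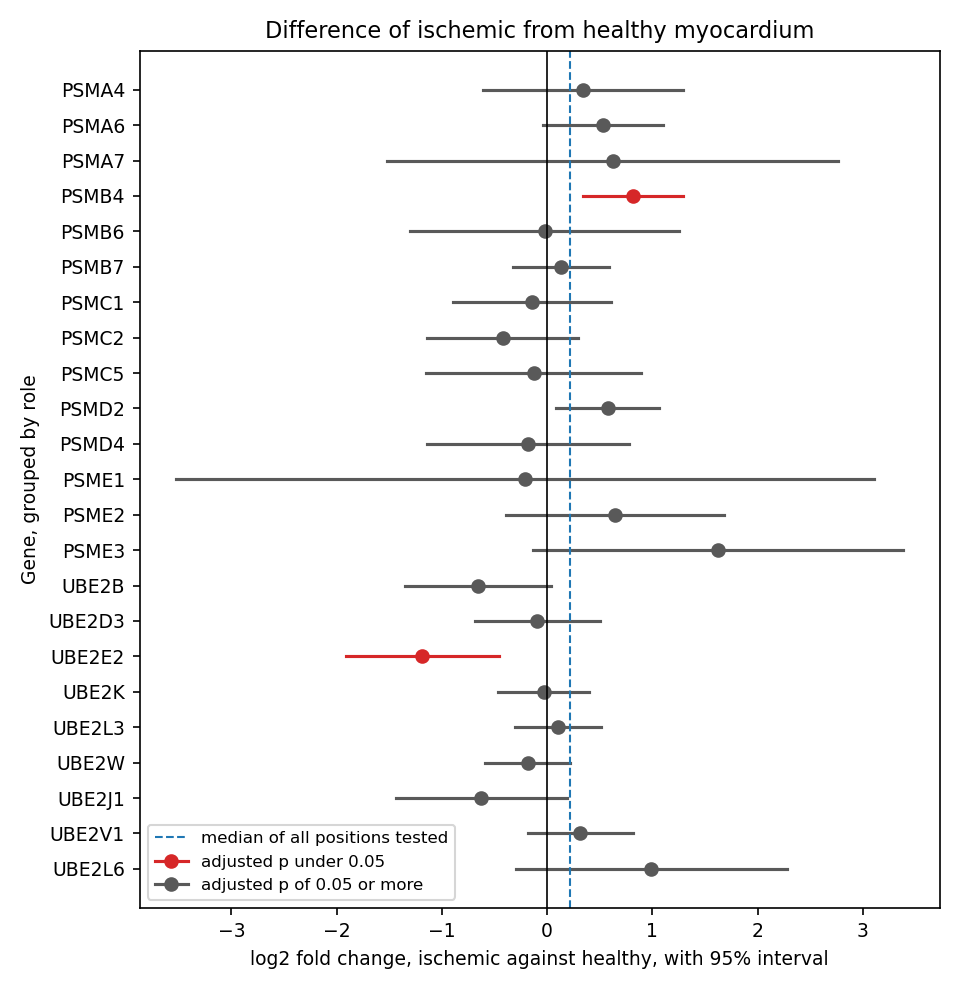
Log2 fold change with its 95% interval of ischemic against healthy tissue for the 23 tested members, ordered by role, with members past the adjusted p of 0.05 in red and the median of all positions (0.21) as a dashed line. The intervals of PSMB4 and PSMD2 lie above 0 and that of UBE2E2 below 0; the widest interval is that of PSME1.

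Most E2 genes differed little between ischemic and healthy tissue. UBE2D3 (chr8:127420972-127431762), a broadly acting E2 that works with many E3 ligases, read 3.02, 3.57 and 3.43 RPKM in healthy, 5.40, 3.74 and 3.26 in the border zone and 3.08, 3.90 and 2.52 in ischemic tissue. Healthy and ischemic values overlapped, and the log2 fold change was -0.09 ± 0.26 (SE). UBE2K, which builds ubiquitin chains that mark proteins for the proteasome, gave -0.03 ± 0.19 (95% interval -0.46 to 0.40). UBE2L3, the partner of ligases that carry ubiquitin on their own cysteine, gave 0.10 ± 0.18, and UBE2V1, the inactive partner in chains used for signalling, gave 0.32 ± 0.22. For 7 of the 23 members (30.4%) the whole 95% interval lay within a log2 change of 1 in either direction, as it did for 17.6% of all positions.

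UBE2B (chr2:142228179-142237960), which acts in DNA damage tolerance and histone ubiquitination, read 3.48, 3.67 and 2.79 RPKM in healthy, 2.59, 2.96 and 1.45 in the border zone and 2.59, 1.61 and 2.08 in ischemic tissue. All ischemic libraries lay below all healthy ones, and the ischemic value was lower in 3 of 3 pigs. The log2 fold change was -0.65 ± 0.30 (SE; limma adjusted p = 0.144), and the gene passed under median scaling (-0.87, adjusted p = 0.0427) and quantile normalization (-0.94, adjusted p = 0.0472). UBE2J1, of the endoplasmic reticulum degradation pathway, gave -0.63 ± 0.36.

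Groups that did not overlap were found for 3 members that were higher in all ischemic libraries (PSMB4, PSMD2 and PSME3) and 2 that were lower (UBE2E2 and UBE2B). Of all tested positions, 43.2% had groups that did not overlap. At an unadjusted p under 0.05, 3 members passed in limma (PSMB4, UBE2E2 and PSMD2), against 40.5% of all positions. Signs were mixed, with 11 members above and 12 below 0. The split was 8 and 6 for proteasome genes and 3 and 6 for E2 genes. Median scaling moves the median over all tested positions from 0.21 to 0.00 on the log2 scale, and then 7 proteasome genes were above and 7 below 0, and 2 E2 genes above and 7 below.

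In border zone against healthy tissue, none of the 23 members passed in limma, none had an unadjusted p under 0.05, and limma-voom on whole reads also called none. Of all positions, 6.0% passed in limma (5.79% higher and 0.21% lower) and 21.4% had an unadjusted p under 0.05. Log2 fold changes of the members ran from -1.27 ± 0.93 (SE) for PSMA7, which had no read in border zone pig 3, to 0.94 ± 0.77 for PSME3, with a median of 0.08. PSMB4 was at -0.08 ± 0.21 (95% interval -0.56 to 0.39) and UBE2E2 at -0.51 ± 0.32, lower in 3 of 3 pigs. PSME2, UBE2L3 and UBE2W were higher in all border zone libraries than in any healthy one, 3 of 23 members against 32.4% of all positions with groups that did not overlap. Of the members, 13 were above and 10 below 0, and under median scaling 5 were above and 18 below.

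In ischemic against border zone tissue, none of the 23 members passed in limma, 2 (PSMB4 and UBE2W) had an unadjusted p under 0.05, and limma-voom called none. Of all positions, 1.13% passed in limma (0.168% higher and 0.965% lower), 15.6% had an unadjusted p under 0.05, and 20% had groups that did not overlap, as did PSMB4, PSMD2 and PSME3 (higher) and UBE2W (lower) among the members. PSMB4 was 1.86-fold higher in ischemic tissue (0.89 ± 0.21 SE, limma adjusted p = 0.0988), higher in 3 of 3 pigs. UBE2W (chr4:67720203-67790546), which can place ubiquitin on the amino terminus of a protein and was picked out after its values were seen, read 1.33, 1.17 and 1.36 RPKM in healthy, 1.63, 1.67 and 1.39 in the border zone and 1.09, 1.08 and 1.19 in ischemic tissue. Every border zone library lay above every ischemic one, and the ischemic level was lower in 3 of 3 pigs (log2 fold change -0.44 ± 0.17 SE, limma adjusted p = 0.279). Against healthy tissue the ischemic level of UBE2W gave -0.19 ± 0.17. UBE2E2 gave -0.68 ± 0.32 against the border zone. The step from healthy to border zone and the step from border zone to ischemic were compared directly: the difference passed for no member in limma or limma-voom, for 2 (PSMB4 and UBE2W) at an unadjusted p under 0.05, and for 9 of all 2384 positions.

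The 3 comparisons share their samples, so they are not separate evidence. All 9 libraries come from 3 pigs. The p-values measure the spread between libraries of the same zone, pooled over the 3 zones and drawn toward a trend over all positions. That spread joins differences between pigs with sampling and counting error. The main fit did not use the pairing of zones within a pig, and pig as a replicate block was run as an alternative.

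Other genes of the ubiquitin pathway were read from a list of 119, of which 33 are in the table and 26 were tested. In ischemic against healthy tissue 1 rose and 3 fell, in border zone against healthy tissue 1 rose, where 27.6% and 6.0% of all positions passed, and in ischemic against border zone tissue none passed in limma, with 3 at an unadjusted p under 0.05 (FBXO32, TRIM63 and PSMF1) and 2 called by limma-voom. None of the 8 E1 genes on the list is in the table. The muscle ubiquitin ligase TRIM63, which targets sarcomere proteins, read 14, 12.4 and 14.4 RPKM in healthy, 5.99, 12.5 and 5.02 in the border zone and 2.13, 3.56 and 2.30 in ischemic tissue. It fell 5.07-fold from healthy to ischemic tissue (log2 fold change -2.34 ± 0.36 SE, limma adjusted p = 0.0033). The other classical muscle ligase gene, FBXO32, read 5.45, 2.76 and 5.55 RPKM in healthy, 3.64, 3.21 and 2.66 in the border zone and 0.873, 1.34 and 0.829 in ischemic tissue, and fell 4.10-fold (-2.03 ± 0.32 SE, limma adjusted p = 0.0033). For both ligases the ischemic libraries lay below all others, and pig 2 was the highest ischemic library, as it was for the summed heart muscle genes. In the border zone pig 2 was highest for TRIM63 and for that sum, but pig 1 for FBXO32. In healthy tissue both ligases were highest in pig 3, by a small margin over pig 1, and the heart muscle sum was lowest in pig 3, at 343 RPKM. The heart muscle genes differed among themselves there. MYH7, the strongest of them, read 207, 137 and 110 RPKM in healthy pigs 1, 2 and 3. PLN (52.9, 40.2 and 55.2) and ATP2A2 (18.0, 25.3 and 25.5) were highest in pig 3. Whether heart muscle content sets the level of the ligases was not tested.

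PSMF1 (chr17:38667829-38711368), a regulator that binds the proteasome core and inhibits it in vitro, read 1.29, 1.19 and 1.07 RPKM in healthy, 0.815, 0.875 and 0.609 in the border zone and 0.323, 0.342 and 0.598 in ischemic tissue. The 3 zones did not overlap, and the gene fell 2.52-fold from healthy to ischemic tissue (-1.33 ± 0.27 SE, limma adjusted p = 0.0103), lower in 3 of 3 pigs. TNFAIP3, a ubiquitin-editing enzyme that restrains NF-kB signalling, read 0.441, 0.909 and 0.630 RPKM in healthy, 7.69, 3.15 and 5.37 in the border zone and 8.09, 2.90 and 2.84 in ischemic tissue. It rose 5.66-fold in ischemic (2.50 ± 0.48 SE, limma adjusted p = 0.00852) and 7.03-fold in border zone tissue (2.81 ± 0.48 SE, limma adjusted p = 0.0168). All 4 calls in ischemic against healthy tissue held under every alternative run, 17 for PSMF1 and 18 for each of the others. The ubiquitin gene UBB, described after its values were seen, did not pass, at 0.75 ± 0.30 (SE; limma adjusted p = 0.1).

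**Figure D5:**
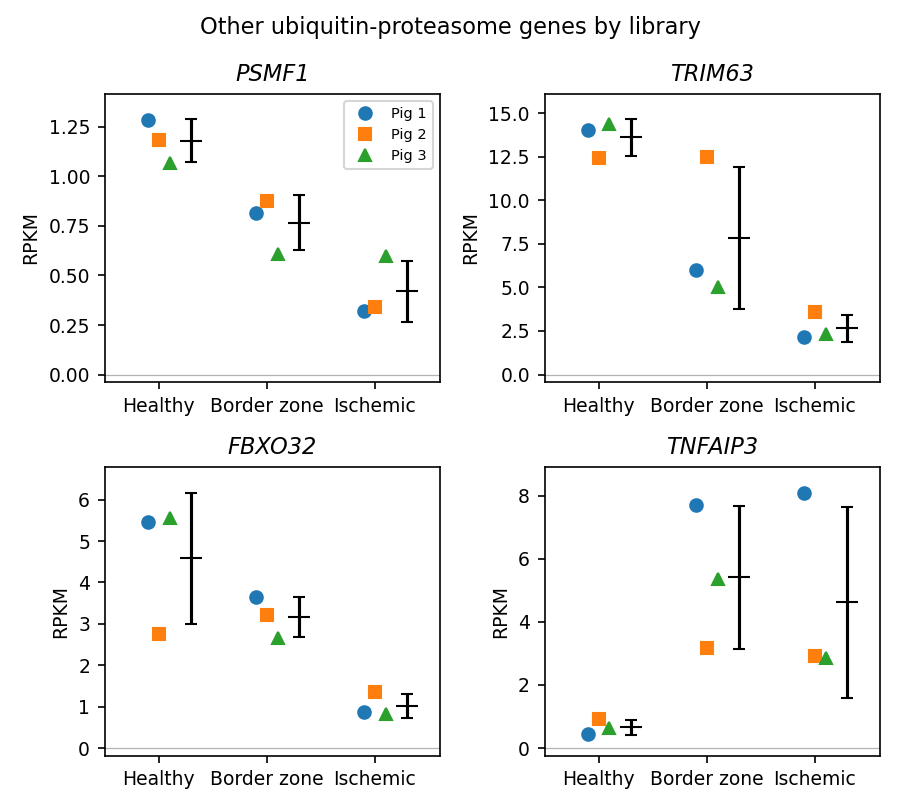
RPKM in each of the 9 libraries for PSMF1, TRIM63, FBXO32 and TNFAIP3, with points by pig and bars for the mean and SD of each zone (n = 3). TRIM63, FBXO32 and PSMF1 are lowest in the ischemic zone, and TNFAIP3 is above every healthy library in the border and ischemic zones.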

How the data were processed

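GRO-seq libraries of 9 samples (3 zones in 3 pigs) were used. Reads were aligned to susScr3 with Bowtie, per the submitters' processing notes; the sources used here do not give its version, the counting program, or how strand and duplicate reads were treated. The deposited RPKM values of the authors are scaled by annotated span and library total. The totals given here were estimated from these values, by taking the smallest value as 1 read and refitting to whole reads. Multiplied by span and this estimate, each value came to whole reads, with a tolerance of 0.02 reads. The totals are thus not a separate measurement. Gene names came from a Sscrofa11.1 RefSeq table (names only), which matched 4793 of 4882 positions.

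RPKM was taken to log2(RPKM + 0.1), and the 2384 positions averaging 0.5 RPKM or more were fitted with limma 3.58.1 (R 4.3.3; 3 groups, 9 libraries, eBayes with trend and robust settings, 2-sided, Benjamini-Hochberg adjusted). Of the positions, 1027 had no read. The code was tested on simulated data. Python 3.11.15 with pandas 2.3.3, numpy 2.4.6, scipy 1.17.1 and matplotlib 3.10.9 was used. Alternatives were pseudocounts of 0.01 and 1, no filter or a filter at 2 RPKM, median scaling, quantile normalization, a pig block, the 2 compared groups alone, limma-voom on whole reads, the position of highest mean, and leaving out each library. Libraries pair by pig, per the animal numbers in the labels: residuals correlated at -0.0368 to 0.179 within pigs (9 pairs) and -0.156 to 0.0816 between pigs (18).

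A few genes are not reported here. Members and lists were chosen with earlier results of these data known. Values per library are given for members past the threshold, the 4 of highest mean, the 4 of largest change that did not pass, and interferon-gamma-inducible members; PSMA4, PSMD2 and UBE2W were added after their values were seen. Estimated depth ran from 883656 to 7005976 reads. Limits from 3 reads cover counting error only, since reads are not known to be independent molecules.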

Additional observations from a re-analysis of the deposited data

How the results depend on the processing

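The count of 2 members past the threshold in ischemic against healthy tissue became 1 under a filter at 2 RPKM and with the position of highest mean (PSMB4), with the 2 compared groups alone and limma-voom (UBE2E2), and under quantile normalization (UBE2B), and 0 to 2 when 1 library was left out. The members were not always the same: under median scaling the 2 were UBE2B and UBE2E2, and without ischemic library 3 they were PSMA4 and PSME2. With pig as a replicate block it was 3, adding PSMD2; the block changed no other member's call and gave 752, 205 and 29 positions past the threshold in the 3 comparisons, against 659, 143 and 27 without it. Over all positions, ischemic against healthy gave 346 at 2 RPKM and 362 to 698 with 1 library left out. Border zone against healthy gave 48 with a pseudocount of 1, 95 with no filter, 76 at 2 RPKM, 90 under median scaling, 85 under quantile normalization, 296 with limma-voom and 36 to 174 with 1 library left out. Ischemic against border zone gave 10 with a pseudocount of 1, 3 with no filter, 8 under median scaling, 5 under quantile normalization, 1 with the 2 groups alone, 92 with limma-voom and 0 to 39 with 1 library left out. Signs near 0 changed in ischemic against healthy tissue. With a pseudocount of 1, PSMB6 was 0.0018 and PSME1 0.36. With limma-voom, PSMB6 was 0.23, PSMC5 0.24 and PSME1 0.80. Under median scaling PSMB7 was -0.073 and UBE2L3 -0.11, and under quantile normalization -0.061 and -0.11. With 1 library left out, the values crossed 0 for PSMB6 (-0.46 to 0.40), PSMC1 (-0.35 to 0.10), PSMC5 (-0.51 to 0.22), PSMD4 (-0.39 to 0.17), PSME1 (-1.50 to 1.62), UBE2D3 (-0.25 to 0.055) and UBE2K (-0.13 to 0.088). The libraries concerned were healthy 1 for PSMC1, PSMC5 and PSME1, healthy 2 for PSMB6 and UBE2K, ischemic 2 for PSMC5 and PSMD4, and ischemic 3 for PSMB6, PSMC1, PSMC5, PSME1 and UBE2D3. At its position of highest mean, UBE2E2 was 1.71 in ischemic and 0.96 in border zone against healthy tissue and 0.75 in ischemic against border zone tissue. That position spans 175 bp and held 46 reads in all. The cause was not tested in the other cases. Counting error limits PSMA7, PSMB9, PSME1 and PSME3, each with 1 library at 0.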

Other observations

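Some members have a second position in the table. UBE2D3 is listed again on chromosome 8 with a span of 10771 bp and a mean of 4.01 RPKM, and its log2 fold change of ischemic against healthy tissue was -0.18 (limma adjusted p = 0.699), near the value at its longest position. UBE2B is listed on chromosome 13 with a span of 869 bp, nearly all of it exon (858 bp), and 139 reads in all. There it read 4.64, 5.37 and 6.34 RPKM in healthy and 5.93, 0 and 11.7 in ischemic tissue. The log2 fold change of -1.52 ± 1.63 (SE; limma adjusted p = 0.522) comes with the ischemic library of pig 2 at 0, so no direction can be given. The longest position, on chromosome 2, gave -0.65. PSMB10, without a read at its longest position, is listed on chromosome 4 with a span of 592 bp and 13 reads in all 9 libraries together, too few to describe its level by zone.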
